A study of Mus musculus with 7 samples.

Results

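Mitochondria that make steroids leak electrons from both the respiratory chain and the P450 enzymes, and the 10 genes described here encode enzymes that remove the resulting superoxide and peroxides or supply them with reducing power. They are Nnt, Prdx3, Txnrd2, Txn2, Gpx1, Gpx4, Sod2, Cat, Glrx2 and Gsr. They were found in the table by symbol. All 10 were found among the 35976 gene symbols of the table, and all 10 were among the 16720 genes tested, whose normalized counts averaged 10 or more.

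Total RNA of whole adrenal glands from the inbred mouse strain C57BL/6J was sequenced in 7 pools, each made into 1 library. The fetal pool, taken at stage E18.5, held 40 glands with no sex given. Pools of 16 male and 22 female glands were taken at postnatal day 1 (P1), 6 male and 6 female glands at 2 weeks, and 4 male and 4 female glands at 12 weeks. No group was treated. All mice had the same strain background, so there was no comparison strain. C57BL/6J carries a deletion of several exons within Nnt and is known to lack a working NNT protein, and all 7 pools carry it. The table gives 1 value per gene and library and none per exon, so the deletion itself was not examined here and the Nnt counts come from what remains of the transcript.

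As background, superoxide dismutase turns superoxide into hydrogen peroxide in the matrix. Peroxiredoxin 3 and the glutathione peroxidases then reduce that peroxide, and thioredoxin reductase 2 with thioredoxin 2, or glutathione reductase with glutathione, return them to the reduced state. Both arms draw electrons from NADPH. NNT, a proton-driven transhydrogenase of the inner membrane, is one of the sources of NADPH in the matrix, and loss of NNT in humans causes familial glucocorticoid deficiency.

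Values are normalized counts, that is reads of a gene divided by 1 size factor per library, and libraries held 15184210 to 23551289 reads in genes. The 10 genes had between 258 reads (Txnrd2 in the P1 female pool) and 9478 reads (Cat in the 12-week female pool) in a library. The library labelled P1 female did not match its label fully. Summed counts of 4 Y-linked genes (Ddx3y, Eif2s3y, Kdm5d and Uty) were 1273 there, against 6135 in the P1 male pool and 4.4 and 2.3 in the female pools at 2 and 12 weeks, while Xist was 8103 in the same library. The E18.5 pool had a Y-linked sum of 4250 and an Xist count of 9782, so it held RNA of both sexes. RNA of neighbouring tissues also differed with age. Summed counts of 8 liver markers were 387965 and 272725 in the male and female pools at P1, 13658 and 35192 at 2 weeks, and 453 and 424 at 12 weeks. Those of 8 skeletal muscle markers were 68100.3 and 132186 at P1, 266 and 8905 at 2 weeks, and 61.5 and 55.4 at 12 weeks, and those of 8 kidney markers fell from 10059.8 and 2783 at P1 to 53.1 and 54.3 at 12 weeks, where reads were found for 2 of the 8. All 8 brown fat markers rose from P1 to 2 weeks, with sums of 718 and 1212 at P1, 32047 and 36351 at 2 weeks, and 12182 and 8802 at 12 weeks. Summed counts of 7 erythroid markers were 21629 and 23928 at P1, 2327 and 9681 at 2 weeks, and 2693 and 1297 at 12 weeks, and all 7 fell from P1 to 12 weeks. The part of these tissues and cells in the results below was not tested. In such bulk samples, fewer cells of a type and less RNA per cell cannot be told apart. Adrenal markers were present in every library, at unlike levels. Star, the cholesterol importer of steroid-making mitochondria, had 47002 counts in the P1 female pool and 372882 in the 12-week male pool. Summed counts of 12 genes of steroid synthesis were 571182 at E18.5, and 397719 and 259668 in the male and female pools at P1. They were 534393 and 540857 at 2 weeks, and 869521 and 1142870 at 12 weeks. Summed counts of 8 markers of chromaffin cells, the cells of the adrenal medulla, were 42040 at E18.5, and 48003 and 93291 at P1. They were 125652 and 107829 at 2 weeks, and 83619 and 99848.5 at 12 weeks. The median of the 8 was 4512 in the P1 male and 4470 in the P1 female pool. The part of these differences in the results below was not tested.

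Levels were compared between genes per kilobase, using the longest principal transcript of GENCODE M21 (genome build GRCm38). On that scale Gpx4 averaged 4058 normalized counts per kilobase over the 7 libraries, Prdx3 3983, Gpx1 3085 and Cat 2390.3. Nnt followed with 551, Txn2 with 440.4, Gsr with 414 and Sod2 with 391, and Txnrd2 with 156 and Glrx2 with 138 were lowest of the 10. With the length of all annotated exons in place of the principal transcript, the same 4 genes were the upper 4 and Txnrd2 and Glrx2 were still lowest, while the order within the upper 4 and within the middle 4 changed. The 3 steps from NADPH to peroxide in the thioredoxin arm thus had unlike transcript levels per kilobase, with Prdx3 highest, Txn2 between and Txnrd2 lowest on both lengths.

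The normalized count of the 10 genes varied between libraries about as much as that of other genes. The median ratio of the highest to the lowest library was 2.27 for the 10 genes and 2.19 for all genes tested. It ran from 1.59 for Txn2 to 3.31 for Prdx3. The female pool at 12 weeks was the highest library for 6 of the 10, against 16.4% of all genes tested, and the P1 female pool was the lowest for 4 of the 10, against 17.5% of all genes.

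**Figure D1:**
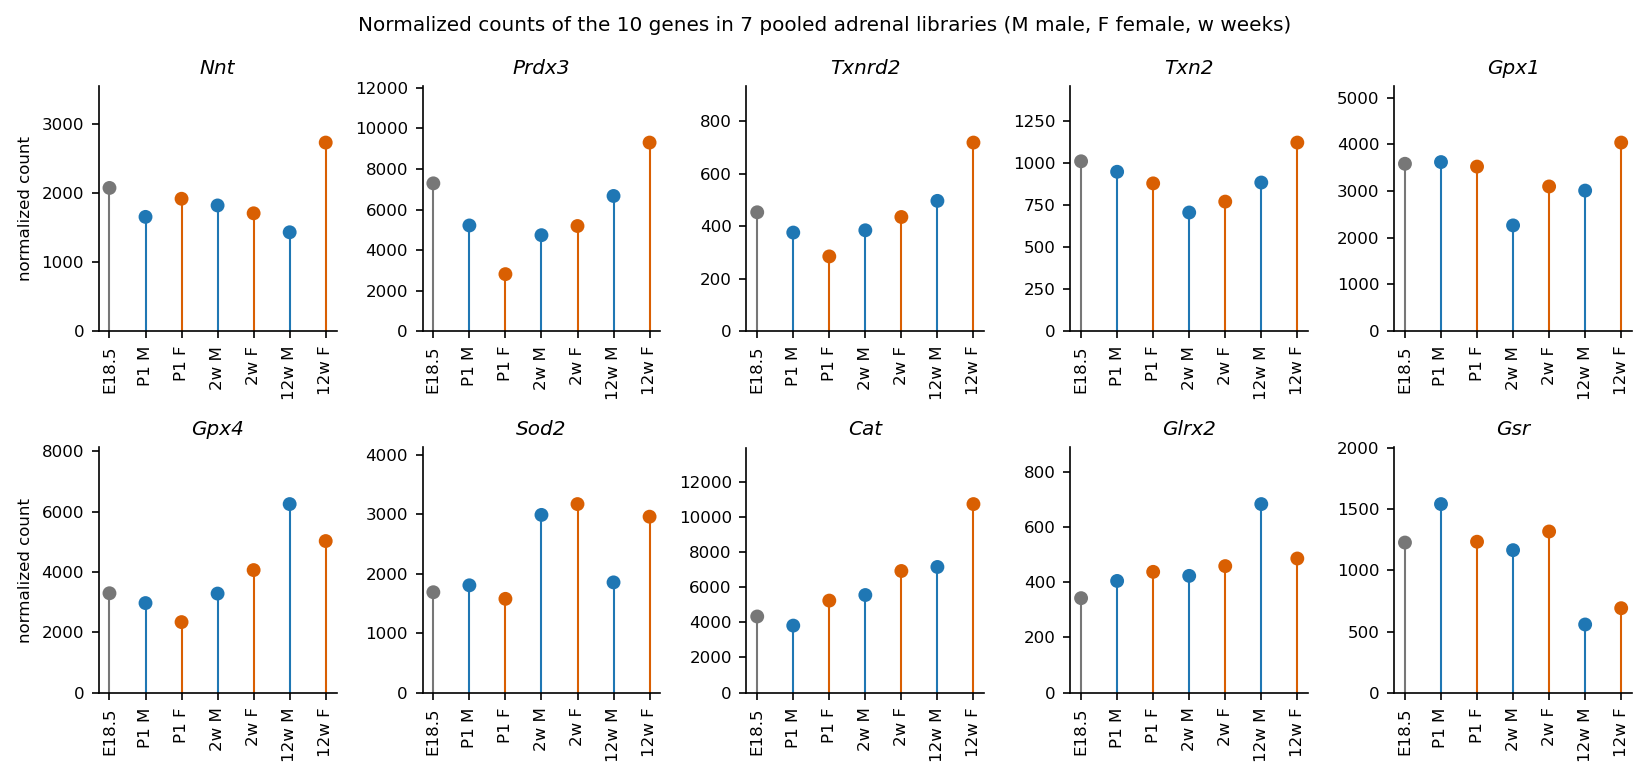
Normalized count (vertical axis, starting at 0) of each gene in each of the 7 pooled libraries (grey E18.5, blue male, orange female); each point is 1 library. Prdx3 and Cat reached 9301 and 10723 in the 12-week female pool, and Gsr was below 700 in both 12-week pools.

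Age was compared in the 6 postnatal libraries, to ask how adrenal expression changes after birth. The limma fit had terms for age and sex, so the spread came from how far male and female pools departed from a common age change, with 2 residual degrees of freedom moderated over all genes. Nothing in the labels describes repeat pools of a group, so the p-values measure only this spread. Between P1 and 12 weeks 5 of the 10 genes passed an adjusted p of 0.05, 4 higher (Prdx3, Txnrd2, Gpx4 and Cat) and 1 lower (Gsr). Of all genes tested 41.2% passed in this comparison, 17.6% higher and 23.5% lower. The count of 5 of 10 is therefore near the background, and 4 of 10 higher lies above 17.6%, which was not tested. The median log2 difference was 0.46 for the 10 genes and -0.03 for all genes. The steps within this span each gave 1 call, Sod2 higher from P1 to 2 weeks (16.4% of all genes passed, 5.89% higher and 10.5% lower) and Gsr lower from 2 to 12 weeks (15.3% of all genes passed, 5.40% higher and 9.89% lower). The median log2 difference of the 10 was 0.19 in the first step and 0.41 in the second, against 0.0026 and -0.03 for all genes. Leaving out the P1 female pool left 1 residual degree of freedom in place of 2, and the number of all 16720 genes that passed then dropped from 2737 to 28 for P1 to 2 weeks, from 2557 to 1025 for 2 to 12 weeks and from 6881 to 3207 for P1 to 12 weeks. A call lost without that pool is therefore given below with its difference.

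**Figure D2:**
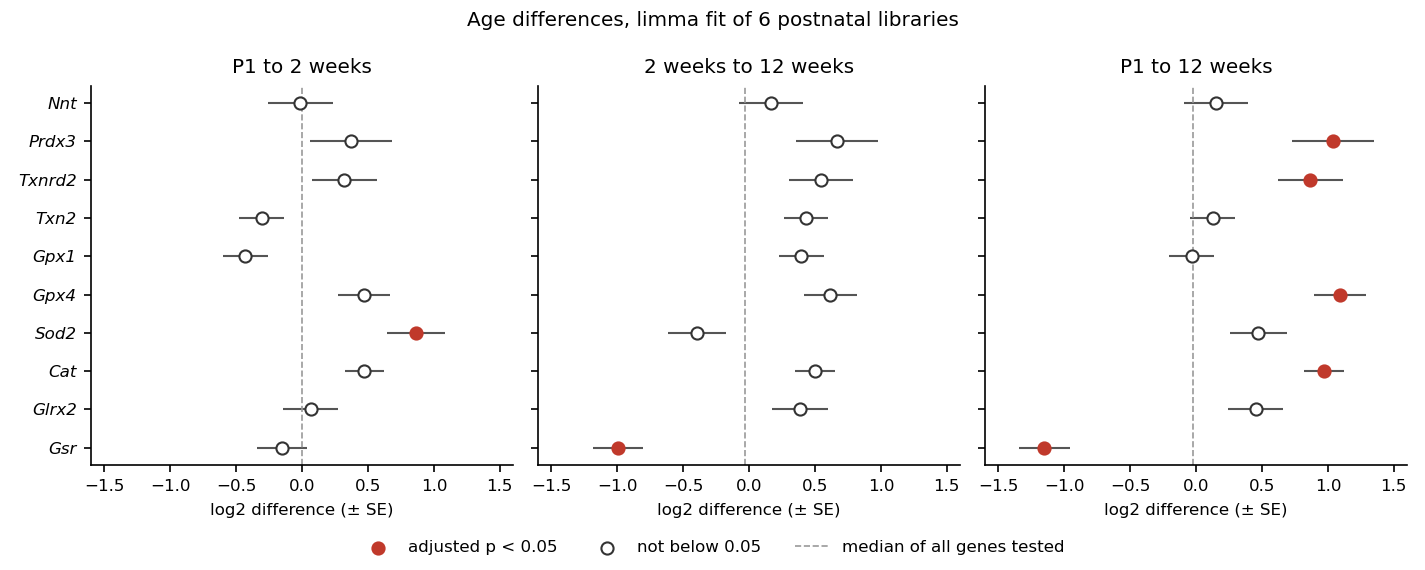
Log2 difference (later minus earlier age) ± SE of each gene in the 3 age comparisons of the limma fit; filled red points passed an adjusted p of 0.05 and the dashed line is the median of all genes tested. Prdx3, Txnrd2, Gpx4 and Cat were higher at 12 weeks than at P1 and Gsr was lower.

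Nnt (chr13:119335448-119408997, minus strand) had 2078 normalized counts at E18.5, 1658 and 1921 in the male and female pools at P1, 1824 and 1709.8 at 2 weeks, and 1434 and 2736 at 12 weeks. The coordinates span 2 annotation entries of that name, the first being ENSMUSG00000025453.18. Which entry the counts come from, and how reads shared by the entries were treated, is not known. The level of Nnt per kilobase carries the same limit. The male and female pools at 12 weeks were the lowest and the highest of the 7 libraries, and the other 5 lay between them. No age difference passed the test. The fitted change from P1 to 12 weeks was 0.15 ± 0.25 on the log2 scale (SE, adjusted p = 0.649), that from P1 to 2 weeks -0.02 ± 0.25 (adjusted p = 0.976) and that from 2 to 12 weeks 0.17 ± 0.25 (adjusted p = 0.688). The sexes moved apart after 2 weeks: the male pool was 0.35 lower at 12 weeks than at 2 weeks (log2 difference -0.35, interval -0.46 to -0.24) and the female pool 0.68 higher (0.59 to 0.77). These intervals are exact 95% binomial intervals of the ratio of reads and cover counting error only, and whether the 2 changes differ was not tested.

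Peroxiredoxin 3, thioredoxin 2 and thioredoxin reductase 2 form the thioredoxin arm. Prdx3 (chr19:60864051-60874556, minus strand) had 7290.4 normalized counts at E18.5, 5213 and 2813 in the male and female pools at P1, 4734 and 5186 at 2 weeks, and 6668 and 9301 at 12 weeks. Both 12-week pools lay above all 4 younger postnatal pools, and the P1 female pool lay well below the rest. Prdx3 rose by 1.04 ± 0.31 on the log2 scale from P1 to 12 weeks (adjusted p = 0.0366). Without the P1 female pool the difference was 0.44 (adjusted p = 0.195, range over 15 alternatives 0.000593 to 0.195), so the size of the rise rests in part on the library that also held Y-linked RNA and the higher muscle marker counts. That library also had the lowest summed counts of the genes of steroid synthesis. Its sum of chromaffin markers was higher than that of the P1 male pool, with a similar median. The call was kept in 8 of the 15 alternatives. It was also lost without the 12-week female pool (0.61), with equal total counts, with no filter on low values and without the eBayes trend. Without either 2-week pool it was lost while the difference stayed at 1.04, in fits with 1 residual degree of freedom. The cause of that loss was not tested.

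Txnrd2 (chr16:18426384-18479073, plus strand) had 453 normalized counts at E18.5, 376 and 285 at P1, 384 and 435 at 2 weeks, and 496 and 718 at 12 weeks, male before female. Its order of libraries resembled that of Prdx3 in having the P1 female pool lowest and the 12-week female pool highest. The rise from P1 to 12 weeks was 0.87 ± 0.25 (adjusted p = 0.0306), and it was 0.49 without the P1 female pool (adjusted p = 0.193, range over 15 alternatives 0.00277 to 0.193) and 0.55 without the 12-week female pool. The call was kept in 8 of the 15 alternatives, and was lost in the same further settings as that of Prdx3, with a difference of 0.87 without either 2-week pool.

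Txn2 (chr15:77915047-77929006, minus strand), the small carrier between Txnrd2 and Prdx3, had 1009.9 normalized counts at E18.5, 948 and 879 at P1, 705 and 770.2 at 2 weeks, and 884 and 1121 at 12 weeks. Both 2-week pools were the lowest of the 7. Neither the difference from P1 to 2 weeks (-0.31 ± 0.17, adjusted p = 0.259) nor that from 2 to 12 weeks (0.43 ± 0.17, adjusted p = 0.132) passed the test.

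The glutathione arm held the peroxidases Gpx1 and Gpx4 and the reductase Gsr. Gpx4 reduces lipid peroxides in membranes, and Gpx1 reduces hydrogen peroxide in the cytosol and matrix. Both, and Txnrd2, are selenoproteins: a TGA codon that would otherwise end translation is read as selenocysteine at the catalytic site. GENCODE marks such a codon in these 3 of the 10 genes. The coding stretches around it are shown because they place the 3 genes on a shared need for selenium, with the selenocysteine codon in capitals. They were read 5′ to 3′ from the transcripts of the principal forms (GRCm38, plus strand for each). The codons lie at chr9:108339451-108339453 in exon 1 of Gpx1, chr10:80054737-80054739 in exon 3 of Gpx4 and chr16:18477772-18477774 in exon 17 of Txnrd2.
Gpx1: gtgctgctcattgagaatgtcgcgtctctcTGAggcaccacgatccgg
Gpx4: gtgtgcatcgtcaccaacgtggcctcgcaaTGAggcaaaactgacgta
Txnrd2: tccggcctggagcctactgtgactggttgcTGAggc
In Gpx1 it is codon 47 of 201 and in Gpx4 codon 73 of 197, whereas in Txnrd2 it is codon 526 of 527, next to the end of the coding sequence.

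Gpx4 (chr10:80047166-80056439, plus strand) had 3297 normalized counts at E18.5, 2971 and 2340.1 at P1, 3286 and 4065 at 2 weeks, and 6254 and 5028 at 12 weeks. Both 12-week pools were above every other library. Gpx4 rose by 1.09 ± 0.20 from P1 to 12 weeks (adjusted p = 0.00622), a fold of 2.13. The difference was 0.92 without the P1 female pool, where its adjusted p was 0.0861 (range over 15 alternatives 2.1e-05 to 0.0861). The call was kept in 13 of the 15 alternatives and was also lost with no filter on low values. The rise was similar in the 2 sexes taken alone, 1.07 in the male pools and 1.10 in the female pools.

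Gpx1 (chr9:108338903-108340343, plus strand) had 3586 normalized counts at E18.5, 3622 and 3526 at P1, 2266 and 3100.2 at 2 weeks, and 3012 and 4040.1 at 12 weeks. The P1 and 12-week values overlapped, and no age difference passed the test: the lowest adjusted p was 0.142, for a difference of -0.43 ± 0.17 from P1 to 2 weeks. Of the 3 selenoprotein genes, Gpx4 and Txnrd2 passed the test from P1 to 12 weeks and Gpx1 did not (-0.03 ± 0.17), and whether the 3 differ was not tested.

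Gsr (chr8:33652523-33698163, plus strand), which returns oxidised glutathione to its reduced form with NADPH, moved the other way. It had 1228 normalized counts at E18.5, 1543 and 1235 at P1, 1166 and 1319 at 2 weeks, and 558 and 691 at 12 weeks. Both 12-week pools lay below all 5 younger libraries. Gsr fell by 0.997 ± 0.192 from 2 to 12 weeks (adjusted p = 0.0194) and by 1.15 ± 0.19 from P1 to 12 weeks (adjusted p = 0.00445). The fall from P1 to 12 weeks passed the test in all 15 alternatives (log2 difference -1.43 to -0.87). That from 2 to 12 weeks passed in 11 (-1.19 to -0.81 over the 15). It was lost when either 2-week pool was left out, with no filter on low values and without the eBayes trend.

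Glrx2 (chr1:143716338-143749676, plus strand), a glutaredoxin of mitochondria and nucleus that removes glutathione from protein thiols, had 342 normalized counts at E18.5, 404 and 437 at P1, 423 and 458 at 2 weeks, and 682 and 485 at 12 weeks. The 12-week male pool stood above the other 6 libraries, which spanned 342 to 485. The difference from P1 to 12 weeks was 0.45 ± 0.21 (adjusted p = 0.128).

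Superoxide itself is removed by Sod2 in the matrix. Sod2 (chr17:13006846-13040063, plus strand) had 1687 normalized counts at E18.5, 1803 and 1576 at P1, 2986 and 3168 at 2 weeks, and 1853 and 2956 at 12 weeks. The 2-week pools and the 12-week female pool were high, and the 12-week male pool was close to the P1 level. Sod2 rose by 0.87 ± 0.22 from P1 to 2 weeks (adjusted p = 0.0424), and 8 of 15 alternatives kept the call (adjusted p 0.000918 to 0.302). It was lost when either P1 pool (1.15 without the male, 0.58 without the female) or either 2-week pool was left out. The call was also lost with a pseudocount of 0.1, with no filter on low values and without the eBayes trend. The same interval held the rise of the brown fat markers, such as Ucp1 from 3.3 and 24.3 normalized counts at P1 to 19373 and 21706 at 2 weeks.

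Cat (chr2:103453849-103485160, minus strand) encodes catalase, which breaks down hydrogen peroxide mainly in peroxisomes. It had 4332 normalized counts at E18.5, 3813 and 5235 at P1, 5552 and 6918 at 2 weeks, and 7147 and 10723 at 12 weeks. In each sex the level was higher at each later postnatal age, and the female pool exceeded the male pool at all 3 ages. Cat rose by 0.97 ± 0.15 from P1 to 12 weeks (adjusted p = 0.00342), and the call was kept in all 15 alternatives (adjusted p 1.1e-07 to 0.0453). The difference was 0.97 without the P1 female pool.

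The 4 genes that rose from P1 to 12 weeks were also compared at their promoters, from 250 bases before to 50 after the start in RefSeq (GRCm38.p6), which held 14 windows for 8 of the 10 genes and none for Nnt or Gsr. Of the motifs searched on both strands, AGGTCA, the half-site of many nuclear receptors, occurred in windows of Prdx3, Txnrd2, Gpx4, Cat and Glrx2 (5 of 14 windows) and in 16.3% of all 32851 windows. The core of the antioxidant response element, TGACNNNGC, was in none of the 14 windows and in 12.4% of all, and the AP-1 site TGANTCA was in none and in 7.81% of all. Genes with several windows had more chances of a match (Gpx4 and Glrx2 had 4 each). The stretches around the half-site are shown for the 4 genes that rose, 5′ to 3′ on the strand of each gene, with the motif in capitals. They lie at chr19:60874693-60874758 (Prdx3, minus), chr16:18426225-18426290 (Txnrd2, plus), chr10:80053913-80053978 (Gpx4, plus) and chr2:103485322-103485387 (Cat, minus).
Prdx3: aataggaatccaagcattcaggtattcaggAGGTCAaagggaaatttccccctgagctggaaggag
Txnrd2: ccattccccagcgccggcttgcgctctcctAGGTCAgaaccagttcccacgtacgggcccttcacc
Gpx4: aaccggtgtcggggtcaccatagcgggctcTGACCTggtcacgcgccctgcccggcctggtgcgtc
Cat: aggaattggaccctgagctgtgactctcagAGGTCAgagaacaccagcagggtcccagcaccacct
In Gpx4 the half-site is on the other strand and so reads TGACCT. The Gpx4 stretch lies within the annotated span of the gene, which begins at chr10:80047166, so its window belongs to a start inside that span. The motifs were chosen after the values were seen. A match is only a description of these letters and no measure of binding.

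The sexes were compared over the 3 postnatal ages in the same fit, male minus female. With limma, 0 of the 10 genes passed an adjusted p of 0.05, and 0.00598% of all genes did (1 of 16720, Xist). At an unadjusted p under 0.05 there was 1 of the 10, Cat (-0.45 ± 0.12, unadjusted p = 0.00868, adjusted p = 0.999), which was lower in the male pool at 3 of 3 ages. Neither edgeR nor DESeq2 on the recovered reads called any of the 10.

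The pools of each age were therefore set side by side, with 1 library per group and no test. At 12 weeks 8 of the 10 genes were lower in the male than in the female pool, and the median difference of the 10 was -0.45 on the log2 scale against 0.02 for all genes. Nnt differed most of the 10, with 1434 normalized counts in the male and 2736 in the female pool (-0.93, counting interval -1.04 to -0.83), followed by Sod2 (-0.67, -0.77 to -0.58), Cat (-0.59, -0.63 to -0.54) and Txnrd2 (-0.53, -0.72 to -0.34). Prdx3 (-0.48), Gpx1 (-0.42), Txn2 (-0.34) and Gsr (-0.31) differed less. Gpx4 (0.31, 0.25 to 0.38) and Glrx2 (0.49, 0.30 to 0.68) were higher in the male pool. All 10 intervals excluded 0, but they leave out the spread between pools. Differences of at least 0.5 in size were seen in 4 of the 10, all lower in the male pool. Of all genes 27.2% differed by that much, 11.7% lower and 15.5% higher in the male pool.

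At 2 weeks 9 of the 10 were lower in the male pool, none by 0.5 or more (12.5% of all genes). The median difference there was -0.15 for the 10 and -0.0042 for all genes. Gpx1 had the largest difference of the 10 there (-0.45, -0.53 to -0.38), and Nnt was the exception at 0.09 (0.0027 to 0.18). At P1 7 of the 10 were higher in the male pool, with a median difference of 0.15 for the 10 and -0.02 for all genes. Prdx3 was the 1 gene of the 10 that differed by at least 0.5 (0.89, 0.82 to 0.96), and 24.3% of all genes did. Cat was lower in the male pool (-0.46, -0.52 to -0.40). The P1 comparison uses the library labelled female that held Y-linked RNA.

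**Figure D3:**
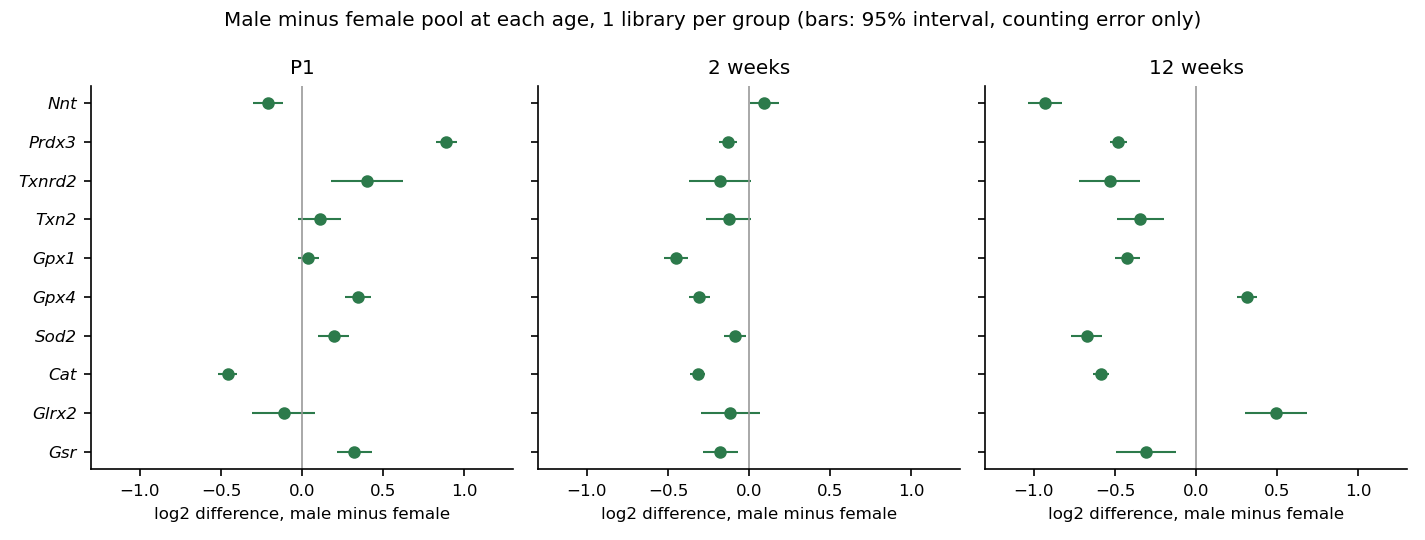
Log2 difference of the male minus the female pool for each gene at P1, 2 weeks and 12 weeks; each point is 1 library against 1 library, and bars are 95% intervals for counting error only. At 12 weeks 8 of the 10 points lie left of 0, with Nnt farthest at -0.93.

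The fetal pool, which held RNA of both sexes, was set beside the P1 pools in the same way. From E18.5 to the P1 male pool none of the 10 differed by 0.5 or more on the log2 scale, against 27.4% of all genes. Prdx3 (-0.48, -0.53 to -0.44) and Nnt (-0.33, -0.41 to -0.24) were lower, and Gsr was higher (0.33, 0.23 to 0.43). From E18.5 to the P1 female pool 2 of the 10 were lower by at least 0.5, Prdx3 (-1.37, -1.44 to -1.31) and Txnrd2 (-0.67, -0.89 to -0.45). Of all genes 15.9% were lower by that much, and 36.6% differed in either direction. Prdx3, Txnrd2, Gpx4 and Nnt were thus lower in both P1 pools than in the fetal pool, and the E18.5 level of Prdx3 was exceeded only by the 12-week female pool.

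The genes were also set against 20 other mitochondrial genes of the respiratory chain, citrate cycle, import and carriers in the same library. The summed counts of these 20 were 129861 and 114351 in the male and female pools at P1, 182107 and 190797 at 2 weeks, and 114722 and 144978 at 12 weeks. From P1 to 2 weeks 7 of the 20 passed the test and rose (5.89% of all genes did), among them Cs, the citrate synthase gene (1.32 ± 0.15, adjusted p = 0.00444). Without the P1 female pool none of the 20 and 28 of all genes passed in this step, while Cs was still 1.20 higher and the median of the 20 was 0.28 in place of 0.48. From 2 to 12 weeks 6 of the 20 passed and fell (9.89% of all genes did), among them Cs (-1.13 ± 0.15, adjusted p = 0.00619), and 4 passed without the P1 female pool, with differences unchanged. Brown fat markers were high in the same 2-week pools. Dividing by the reference sum adds the same 0.53 to the log2 difference of every gene from 2 to 12 weeks, so it does not change their order, and 78.8% of all genes tested were then higher at 12 weeks (47.3% before). Of the 10 genes 8 were higher before the division and 9 after it, so the count of 9 depends in part on the scaling. As means of the sexes, the log2 differences per summed reference count were 1.20 for Prdx3, 1.15 for Gpx4, 1.08 for Txnrd2, 1.03 for Cat, 0.96 for Txn2, 0.93 for Gpx1, 0.92 for Glrx2, 0.70 for Nnt and 0.14 for Sod2, and -0.47 for Gsr. Per 1000 reference counts Prdx3 gave 26.0 and 27.2 at 2 weeks and 58.1 and 64.2 at 12 weeks, without overlap. Nnt gave 10.01 and 8.96 at 2 weeks and 12.5 and 18.9 at 12 weeks, while the P1 pools gave 12.8 and 16.8. With the median of the 20 genes in place of their sum, Sod2 was -0.11 and the other directions from 2 to 12 weeks held.

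**Figure D4:**
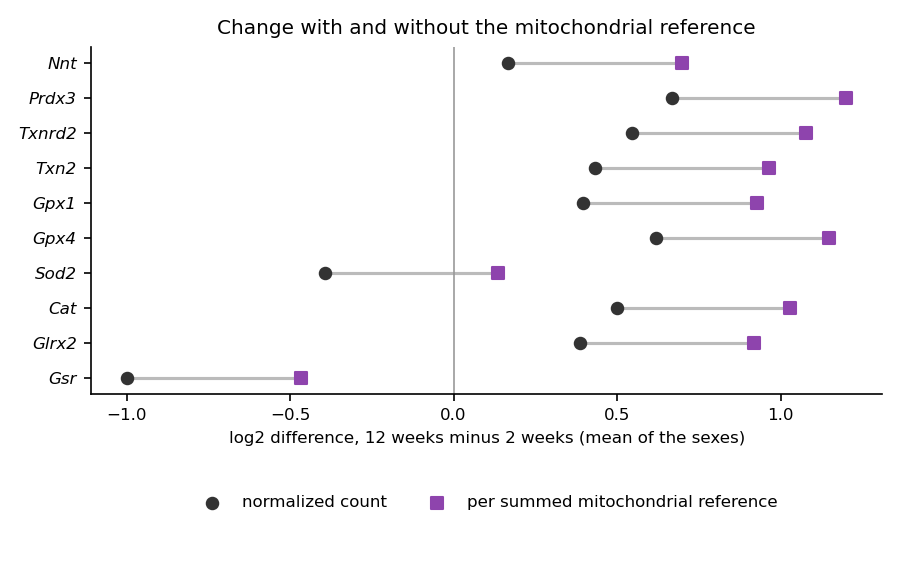
Log2 difference from 2 to 12 weeks of each gene as normalized count (black circles) and per summed count of 20 mitochondrial reference genes of the same library (purple squares), as means of the male and female pools. Each gene lies farther right on the reference scale, and Gsr is below 0 on both.

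Other genes of the pathway came from lists of known function. NADPH in the matrix is also made by dehydrogenases and the folate cycle. A list of 11 genes covers these routes and their supply, and not each of its genes makes NADPH itself. Of the 11, 6 fell and 1 rose from P1 to 12 weeks (median -0.66, all genes -0.03). Of all genes 23.5% fell and 17.6% rose. Aldh1l2, a folate dehydrogenase that makes NADPH, fell by 2.02 ± 0.30 (adjusted p = 0.00286), from 163 and 158 normalized counts at P1 to 32.2 and 46.4 at 12 weeks. Shmt2, which feeds serine carbon into the folate cycle, fell by 1.09 ± 0.15 (adjusted p = 0.0022). Aldh4a1, the gene that rose (1.14 ± 0.19, adjusted p = 0.00486), works in proline breakdown and mainly uses NAD. From 2 to 12 weeks 4 of the 11 fell (9.89% of all genes did), led by Me3 (-2.22 ± 0.37, adjusted p = 0.0128), a mitochondrial malic enzyme, and Mthfd2 (-1.33 ± 0.23, adjusted p = 0.0141), of the folate cycle. Idh2, the NADP-linked isocitrate dehydrogenase, was named after its values were seen: it had 4279.5 and 5010.2 normalized counts at P1, 5374 and 5378 at 2 weeks, and 2756 and 2237 at 12 weeks, and fell by 1.11 ± 0.17 from 2 to 12 weeks (adjusted p = 0.00933). Without the P1 female pool 2 of the 11 passed as lower and 1 as higher from P1 to 12 weeks (median -0.71), and with upper quartile scaling 4 fell and 1 rose. In the step from 2 to 12 weeks Idh2 alone of the 11 passed without the P1 female pool, with the differences of all genes unchanged.

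Of 13 other thioredoxin and peroxiredoxin genes, 2 rose and 2 fell from P1 to 12 weeks (median -0.04), a smaller share than the 41.2% of all genes that passed. Prdx1, the main cytosolic peroxiredoxin, rose by 0.99 ± 0.23 (adjusted p = 0.0159) and Prdx5, found in mitochondria and peroxisomes, by 0.51 ± 0.15 (adjusted p = 0.0379). Prdx4, of the endoplasmic reticulum, fell by 0.95 ± 0.19 (adjusted p = 0.00961) and Sesn1, a sestrin, by 0.53 ± 0.17 (adjusted p = 0.0462). Without the P1 female pool Prdx4 alone of the 13 passed, and the differences were 0.64 for Prdx1, 0.40 for Prdx5 and -0.70 for Sesn1. Of 17 other glutathione genes, 7 rose (17.6% of all genes did) and 1 fell (median 0.49). Gstk1, a glutathione transferase of mitochondria and peroxisomes, rose by 1.88 ± 0.32 (adjusted p = 0.00486), from 684 and 685 normalized counts at P1 to 1544 and 4149.9 at 12 weeks, and Mgst3, a membrane-bound transferase, by 1.11 ± 0.15 (adjusted p = 0.00207). The call of Gstk1 was lost without the P1 female pool, with a difference of 1.44. Gpx7, a peroxidase of the endoplasmic reticulum, fell by 2.13 ± 0.20 (adjusted p = 0.000599). Without the P1 female pool 3 of the 17 passed as higher and 1 as lower (median 0.20). Of the 3 other superoxide dismutase genes, Sod3, the extracellular enzyme, rose by 1.75 ± 0.17 (adjusted p = 0.000689), and this call was kept without that pool.

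Among 11 regulators, Nfe2l2, which encodes the transcription factor NRF2, rose by 0.73 ± 0.16 (adjusted p = 0.0133) from P1 to 12 weeks, and Ppargc1a, a coactivator of mitochondrial gene expression, fell by 1.76 ± 0.26 (adjusted p = 0.00286). Ppargc1a had 489 and 374 normalized counts at P1, 564 and 579 at 2 weeks, and 102 and 154 at 12 weeks. Thus 1 of the 11 rose and 1 fell, against 17.6% of all genes that rose and 23.5% that fell. The median of the 11 was -0.10, and 0.0068 with upper quartile scaling. Of 10 known NRF2 targets 3 rose (17.6% of all genes did) and none fell from P1 to 12 weeks (median 0.05). Taldo1 (1.40 ± 0.22, adjusted p = 0.00367) and Tkt (1.10 ± 0.15, adjusted p = 0.00224), both enzymes of the pentose phosphate pathway, led them, and both passed without the P1 female pool. Of 8 genes of selenoprotein synthesis or selenium binding 1 passed from P1 to 12 weeks, against 41.2% of all genes. Sephs2, which makes the selenium donor, fell by 1.10 ± 0.19 (adjusted p = 0.00556). Of the selenoprotein genes, Gpx4 and Txnrd2 were higher and Gpx1 did not pass (-0.03 ± 0.17). Of 12 genes of steroid synthesis 5 rose (17.6% of all genes did), led by Star (2.43 ± 0.37, adjusted p = 0.00326) and Hsd3b1 (1.91 ± 0.32, adjusted p = 0.00441). Without the P1 female pool the calls of Star (1.92 there) and Hsd3b1 (1.87) were among those lost.

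**Figure D5:**
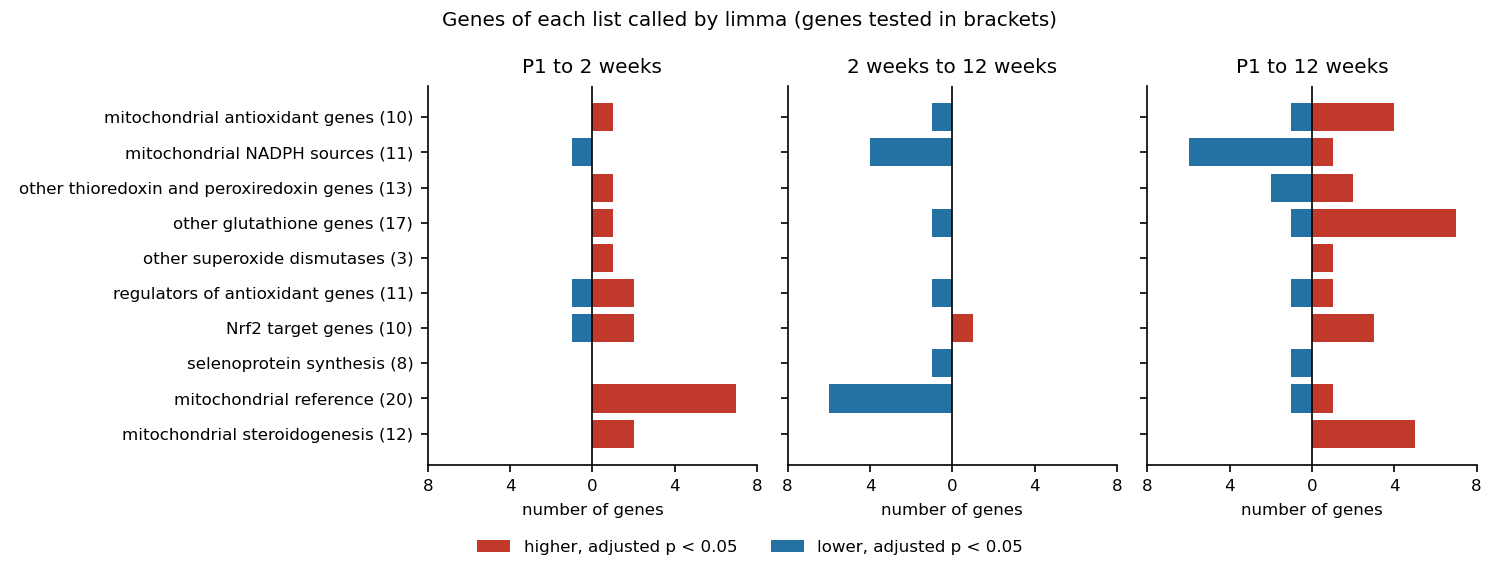
Number of genes of each list that passed an adjusted p of 0.05 as higher (red, to the right) or lower (blue, to the left) in each age comparison; the number of genes tested is in brackets. From P1 to 12 weeks 4 of the mitochondrial antioxidant genes were higher and 1 lower. Of the 11 genes listed as mitochondrial NADPH sources, not all of which make NADPH, 6 were lower and 1 higher.

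The genes whose profile over the 7 libraries was most like that of Nnt were found among 12254 genes averaging 100 normalized counts or more. Ccnd3 had a Pearson r of 0.982, Dhx37 0.976, Gatad1 0.974, Tmem98 0.972 and Srp72 0.967. These are descriptions over 7 libraries that share the extremes of the 12-week pools, and the genes were selected for high r. Ccnd3 gave 1225 normalized counts in the 12-week male and 4393 in the 12-week female pool, the lowest and highest of its 7 libraries, as for Nnt. Among the other 9 antioxidant genes r with Nnt ran from -0.38 for Glrx2 to 0.59 for Txn2.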

How the data were processed

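Per the labels' protocols, a guanidinium thiocyanate method gave the RNA and the libraries were Illumina's standard kind. The submitters' processing notes name mm10, CASAVA 1.8.2, HISAT2 2.1.0, HTSeq 0.9.1 and DESeq2 2.11.40.6 without their roles; the annotation, strand setting and treatment of reads with several matches are not given in the sources used here, so reads shared with near-identical copies are uncertain. The authors deposited 1 signal table of normalized counts. Every value was a whole number of reads (within 0.01, 100% of values) divided by 1 size factor per library.

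Differences were taken between log2(normalized count + 1) values, so changes of low genes are understated. limma 3.58.1 in R 4.3.3 (lmFit, eBayes with trend, two-sided) was fitted to all 16720 genes with a mean of at least 10, with age and sex as terms, and Benjamini-Hochberg adjustment over all of them. The E18.5 pool stayed out of the fit. Alternatives included edgeR 4.0.16 and DESeq2 1.42.0 on the recovered reads. Exact binomial intervals of read ratios, at 95%, cover counting error only.

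The genes and lists were chosen with earlier results of these data known. All 10 genes were named; from each list, the 2 highest and 2 lowest changes among genes that passed and had 100 normalized counts or more in any compared library were named. Some results that this rule or the annotation would give are not reported here. The counts of list genes under each setting were added after the data were seen.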

Additional observations from a re-analysis of the deposited data

How the results depend on the processing

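Leaving out 1 library at a time left 1 residual degree of freedom and assumed that a lone pool varies like the others. The number of the 10 genes that passed then ranged from 0 to 2 for P1 to 2 weeks (1 with all libraries), 0 to 3 for 2 to 12 weeks (1) and 2 to 7 for P1 to 12 weeks (5), and was 0 throughout for sex. With no filter on low values the counts were 0, 0 and 2, without the eBayes trend 0, 0 and 3, with DESeq2 2, 3 and 5, with a pseudocount of 0.1 it was 0 for P1 to 2 weeks, and with equal total counts 3 for P1 to 12 weeks. Without a filter none of all 27254 genes passed in the first 2 comparisons (6431 and 6036 at an unadjusted p under 0.05). Equal total counts moved the median of all genes by -0.17 for 2 to 12 weeks (to -0.20) and by -0.12 for P1 to 12 weeks (to -0.15), and upper quartile scaling moved the latter by 0.11 (to 0.08). Of 360 tested values of single genes under other settings 340 kept direction and side of the threshold, 12 lost and 3 gained the call, and 5 changed sign, none of them called: Nnt P1 to 2 weeks 0.035 with equal totals and 0.012 with upper quartile scaling, Nnt 2 to 12 weeks -0.0039 and Gsr for sex 0.0067 with equal totals, and Gpx1 P1 to 12 weeks 0.08 with upper quartile scaling. Relative to the median of the reference genes Txnrd2 P1 to 2 weeks was 0.0022, against -0.29 relative to their sum.

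Leaving out 1 library turned the sign of further values that had not passed. For P1 to 2 weeks Nnt ranged from -0.35 to 0.32, Prdx3 from -0.23 to 0.97, Txnrd2 from -0.06 to 0.70, Glrx2 from -0.09 to 0.22 and Gsr from -0.44 to 0.13. For 2 to 12 weeks Nnt ranged from -0.27 to 0.60. For P1 to 12 weeks Nnt ranged from -0.28 to 0.59, Txn2 from -0.047 to 0.30 and Gpx1 from -0.27 to 0.20. For sex Prdx3 ranged from -0.31 to 0.38, Txnrd2 from -0.36 to 0.11, Sod2 from -0.38 to 0.05, Glrx2 from -0.11 to 0.19 and Gsr from -0.24 to 0.07. The cause was not tested. No pairing beyond the age and sex terms of the fit was possible, because each group holds 1 pool and the labels carry no replicate numbers. Txnrd2 and Glrx2, with 258 to 635 reads a library, had the widest counting intervals of the 10.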

Other observations

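Srxn1, which encodes sulfiredoxin, the enzyme that repairs overoxidised peroxiredoxins, was singled out after its values were seen. It had 5100.0 normalized counts at E18.5, 2629.9 and 871 in the male and female pools at P1, 2777 and 2850.5 at 2 weeks, and 3073 and 5786 at 12 weeks. The P1 female pool was lowest and the 12-week female pool highest, as for Prdx3. No age difference of Srxn1 passed the test (P1 to 12 weeks 1.48 ± 0.51, adjusted p = 0.0592). Hmox1, an NRF2 target that breaks down haem, had 2142 and 796 normalized counts at P1, 117 and 141 at 2 weeks, and 2141 and 496 at 12 weeks. It fell by 3.34 ± 0.50 from P1 to 2 weeks (adjusted p = 0.00916) and rose by 2.996 ± 0.50 from 2 to 12 weeks (adjusted p = 0.0127), while summed counts of 8 macrophage markers were 9837 and 10840.5 at P1, 4120.5 and 5418 at 2 weeks, and 11578 and 10686 at 12 weeks. Both calls of Hmox1 were lost without the P1 female pool, with differences of -3.59 and 2.996. The part of macrophages in these changes was not tested.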
